A study of Mus musculus with 4 samples.

Results

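Epithelial and mesenchymal cells of the embryonic parotid gland, the salivary gland in front of the ear, were set against each other gene by gene. The cells came from ICR mouse embryos at embryonic day 12, with no transgene or treatment, and about 10 glands were pooled per gland type, per the labels' protocols. After a Dispase treatment of 10 min, epithelium and mesenchyme were pulled apart, dissociated in cold protease and captured as separate droplet libraries, 1 per tissue. The submandibular gland was handled in the same way, so the series holds 4 libraries. The cells were selected on their own UMIs (unique molecular identifiers, which mark captured RNA molecules). A barcode was kept if it showed 500 genes or more and if mitochondrial genes took no more than 10% of its UMIs. An epithelial cell was a barcode of the epithelium library with at least 1 UMI of Epcam, an epithelial adhesion gene, and none of Pdgfra or Col3a1. A mesenchymal cell was a barcode of the mesenchyme library with at least 2 UMIs of Pdgfra and Col3a1 together, a growth factor receptor and a fibrillar collagen of connective tissue, no Epcam, and under 20% haemoglobin UMIs. These gates gave 1491 epithelial and 3501 mesenchymal cells, or 4992 of the 6484 barcodes in the parotid libraries and of the 15351 in the series. Each tissue was 1 library of pooled embryos, so no value below has a test or a replicate, and tissue and library cannot be told apart except where stated.

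At this age the parotid is an epithelial bud growing out of the oral ectoderm into loose mesenchyme, most of it of neural crest origin. Epithelial cells are held together by cadherins, desmosomes and tight junctions, carry keratin filaments and rest on a laminin-rich basement membrane. Mesenchymal cells are scattered in a collagen matrix, carry vimentin filaments and keep a transcription factor code of their place in the face. The tissues pass signals to each other through ligands made on one side and receptors carried on the other, and salivary glands are a classic system for such exchange.

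The mesenchymal cells held 22188548 UMIs and the epithelial cells 11562185. The median cell had 7310 UMIs on the epithelial and 5629 on the mesenchymal side. Levels are given as CPM, a gene's UMIs per 1000000 UMIs summed over all cells of a side, and brackets hold 95% intervals for counting error alone. Where 2 levels of a gene are joined by "against" with no side named, the epithelial level comes first. The gates kept 80.4% of the filtered barcodes of the epithelium library and 79.2% of those of the mesenchyme library. Most of what the epithelial gate left out was 328 barcodes with no UMI of any of the 3 gate genes. These were shallower, at a median of 5000 UMIs, and had Krt14 at 1228 CPM, Krt8 at 24.9 CPM and Cdh1 at 21.4 CPM, where the kept cells had 1012, 62.0 and 33.1 CPM. The 323 cells just inside the gate, with exactly 1 Epcam UMI, had Krt14 at 1231 CPM. On the mesenchymal side the 380 barcodes just outside, with 1 UMI of Pdgfra or Col3a1, had Prrx1 at 317 CPM, and the 446 just inside, with 2, had it at 458 CPM. Barcodes carrying Epcam together with at least 2 Pdgfra or Col3a1 UMIs numbered 4 in the epithelium and 50 in the mesenchyme library, and 71 barcodes of the mesenchyme library were erythroid by their haemoglobin. The labels held against markers that the gates did not use. For these and all later gene lists, members are counted from 20 CPM on the higher side, a level that 6059 genes reached. Of those 6059 genes, 7.29% were 2-fold or more higher in epithelial cells and 10.4% in mesenchymal cells, and at 10-fold the shares were 2.34% and 2.95%. All 17 such epithelial markers were 10-fold or more higher on the epithelial side. All 15 such mesenchymal markers were 2-fold or more higher on the mesenchymal side, 12 of them 10-fold or more. The libraries shared 12 barcode sequences, 8 of them among the cells compared.

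Keratin genes were high in epithelial cells, where 8 of the 9 listed genes that reached 20 CPM were higher by 10-fold or more. Of 28 listed mesenchymal transcription factors of that level, 19 were 10-fold or more higher in mesenchymal cells. Of 3268 genes of at least 50 CPM on one side, 72 were at least 10-fold higher in epithelial cells (2.2%) and 106 in mesenchymal cells (3.24%). At a size of 2-fold the numbers were 204 (6.24%) and 300 (9.18%). The 72 include the gate gene Epcam, and the 106 include Pdgfra, Col3a1 and 3 globin genes. The median log2 ratio of epithelial over mesenchymal CPM across the 3268 genes was close to 0. The 10-fold genes took up little of the RNA, 1.41% of epithelial and 2.44% of mesenchymal UMIs. For 5 of the epithelial and 10 of the mesenchymal 10-fold genes the other side had no UMI at all, and their ratios are lower bounds, computed against 3 UMIs over the empty side (0.26 CPM in epithelial and 0.135 CPM in mesenchymal cells).

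**Figure D1:**
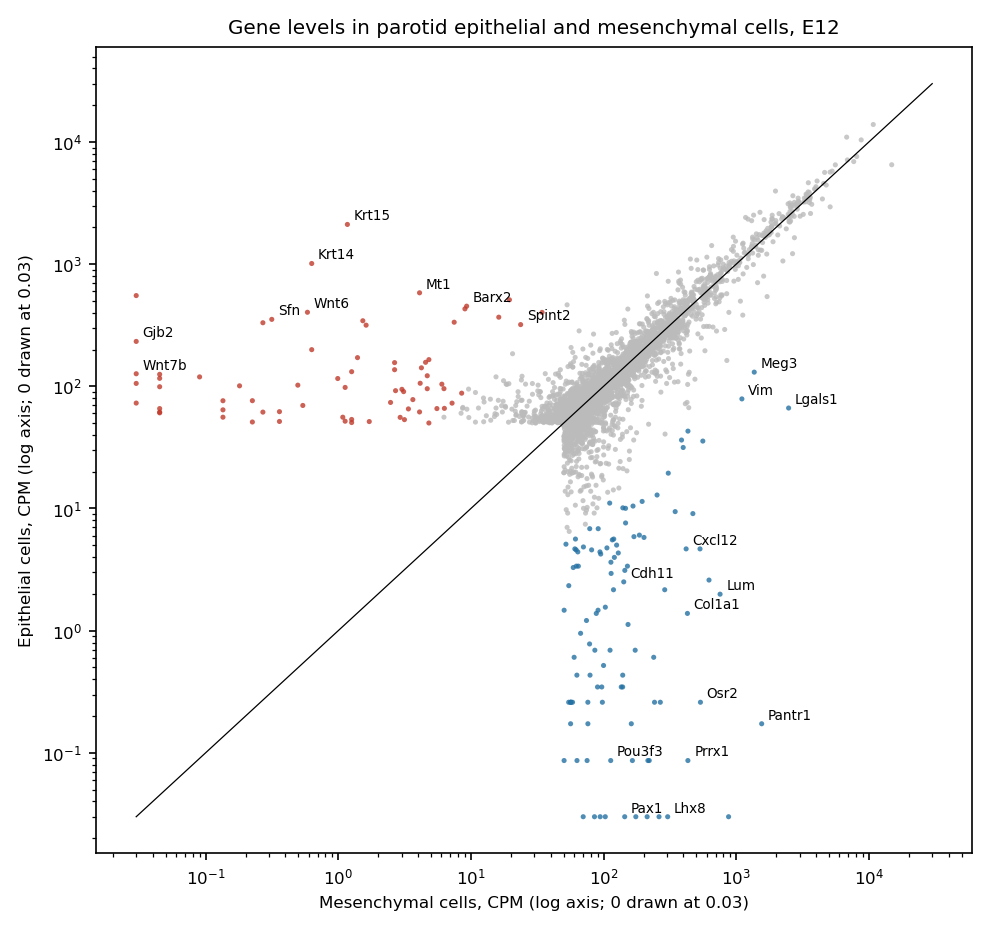
Level of each of 3268 genes in parotid mesenchymal cells (horizontal) and epithelial cells (vertical), in CPM on log axes, with 0 drawn at 0.03. Red points are the 72 genes at least 10-fold higher in epithelial cells, blue points the 106 at least 10-fold higher in mesenchymal cells, and grey points all others, which follow the line of equal level. Krt15 sits at 2113 against 1.17 CPM and Pantr1 at 0.173 against 1555 CPM.

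Among the epithelial 10-fold genes, the keratins Krt15 and Krt14, intermediate filament genes, had the highest levels. Krt15, a keratin of basal progenitor cells, was at 2113 CPM in epithelial cells (2087 to 2140) and 1.17 CPM in mesenchymal cells (0.765 to 1.72). That is 1803-fold (1230 to 2761), and 86.4% of epithelial cells had a Krt15 UMI against 0.743% of mesenchymal cells. Krt14 and Krt5, which pair in the filaments of basal cells, were at 1012 against 0.631 CPM and at 331 against 0.27 CPM. Krt17, a keratin of ectodermal appendages, was at 116 CPM against a single mesenchymal UMI, a ratio of 2579 whose interval runs from 462 to 101949. Krt17 UMIs were found in 15.2% of epithelial cells, so its level came from a smaller set of cells than that of Krt15. Krt19 was at 106 CPM with no mesenchymal UMI, at least 781-fold. Krt15, Krt19, Krt14 and Krt17 lie in the same stretch of GRCm38 chromosome 11, from 100131758 (start of Krt15) to 100261029 (end of Krt17), all on the minus strand. Krt7, Krt8 and Krt18, keratins of simple and ductal epithelium, were lower, at 64.2, 62.0 and 132 CPM, and 475-, 172- and 104-fold above mesenchymal cells. In all, 8 of the 9 keratins that reached 20 CPM were 10-fold or more higher in epithelial cells, beside 2.34% of all genes of that level. The exception, Krt10, a keratin of differentiated skin layers, was at 60.1 against 58.1 CPM.

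Junction genes followed. Gjb2 encodes connexin 26, a gap junction channel (ENSMUSG00000046352, GRCm38 chromosome 14, 57098600 to 57104702, minus strand). It was at 233 CPM (224 to 242) in epithelial cells with 0 UMIs among the mesenchymal cells, at least 1723-fold, and was seen in 44.1% of epithelial cells. Its neighbour Gjb6, connexin 30, was at 72.9 CPM with 0 mesenchymal UMIs, at least 539-fold. The other gap junction genes of that level, Gja1 (84.9 against 107 CPM) and Gjc1 (1.54-fold higher in mesenchymal cells), were within 2-fold. All 6 tight junction genes that reached 20 CPM were 10-fold or more higher in epithelial cells, among them the claudins Cldn4 (119 against 0.0901 CPM) and Cldn6 (99.2 against 0.0451 CPM). Of 7 desmosome and hemidesmosome genes, which anchor cells to one another and to the basement membrane, all were at least 2-fold and 5 at least 10-fold higher in epithelial cells. Dsp, desmoplakin, was at 76.2 against 0.135 CPM, Perp at 317 against 1.62 CPM, and Col17a1, a collagen of the hemidesmosome, at 42.2 against 0.18 CPM. The cadherins split by member. Cdh1, E-cadherin, was at 33.1 against 0.0451 CPM and Cdh3, P-cadherin, at 61.5 against 0.27 CPM, where Cdh11 was at 2.51 against 142 CPM and Cdh2, N-cadherin, at 5.36 against 49.6 CPM. The catenins that link cadherins to actin, Ctnnb1 and Ctnna1, were within 2-fold (1.66 and 1.75 times the mesenchymal level). Sfn, a 14-3-3 protein of stratified epithelium, was at 353 against 0.316 CPM.

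Upstream sequence is shown for those of the 15 leading genes of each side that come first by the lower limit of the ratio and whose 250 bases before the start are in the RefSeq promoter table (GRCm38.p6), outside the gene as GENCODE annotates it and clear of annotated exons. They are Gjb2 (chr14:57104703-57104952), Krt5 (chr15:101712906-101713155), Sfn (chr4:133602169-133602418) and Gjb6 (chr14:57133612-57133861) for epithelial cells, and Epha3 (chr16:63864176-63864425) and Shox2 (chr3:66981772-66982021) for mesenchymal cells, all on the minus strand. Capitals mark matches, on either strand, to 4 motifs: CAGGTG, the E-box bound by the ZEB and SNAI repressors, AACNNGTT (grainyhead-like factors), GCCNNNGGC (AP-2 factors) and TAATTA (homeodomain factors).
Gjb2: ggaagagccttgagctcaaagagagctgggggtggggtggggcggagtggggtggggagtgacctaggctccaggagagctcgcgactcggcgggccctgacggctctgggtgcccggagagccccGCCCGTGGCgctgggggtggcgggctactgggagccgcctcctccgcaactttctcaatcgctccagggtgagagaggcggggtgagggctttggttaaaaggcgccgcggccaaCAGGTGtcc
Krt5: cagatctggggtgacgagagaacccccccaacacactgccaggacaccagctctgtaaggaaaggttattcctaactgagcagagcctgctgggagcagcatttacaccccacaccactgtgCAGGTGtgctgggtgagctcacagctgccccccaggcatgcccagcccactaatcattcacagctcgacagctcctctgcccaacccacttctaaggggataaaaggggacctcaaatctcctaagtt
Sfn: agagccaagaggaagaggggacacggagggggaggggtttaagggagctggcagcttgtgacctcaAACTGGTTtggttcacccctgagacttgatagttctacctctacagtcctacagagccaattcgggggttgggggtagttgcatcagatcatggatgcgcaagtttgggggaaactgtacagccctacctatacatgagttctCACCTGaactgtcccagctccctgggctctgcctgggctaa
Gjb6: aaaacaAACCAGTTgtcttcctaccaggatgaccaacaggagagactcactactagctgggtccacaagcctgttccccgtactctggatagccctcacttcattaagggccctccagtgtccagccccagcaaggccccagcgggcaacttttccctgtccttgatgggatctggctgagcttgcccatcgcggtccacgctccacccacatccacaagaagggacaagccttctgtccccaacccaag
Epha3: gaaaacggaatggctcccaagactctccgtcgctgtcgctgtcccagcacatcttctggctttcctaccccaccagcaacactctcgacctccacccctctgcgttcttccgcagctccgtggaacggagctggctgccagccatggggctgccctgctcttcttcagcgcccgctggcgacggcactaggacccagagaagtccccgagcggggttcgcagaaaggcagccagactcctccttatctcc
Shox2: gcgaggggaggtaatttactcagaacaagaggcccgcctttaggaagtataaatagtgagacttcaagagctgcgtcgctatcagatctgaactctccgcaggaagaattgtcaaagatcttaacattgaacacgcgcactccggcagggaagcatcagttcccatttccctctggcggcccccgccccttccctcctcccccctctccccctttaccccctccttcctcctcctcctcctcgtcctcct
CAGGTG was found in the windows of Gjb2, Krt5 and Sfn, and not in those of Gjb6, Epha3 and Shox2. Over all 27025 promoters in the table, windows of this length held CAGGTG in 17.1%, AACNNGTT in 3.63%, GCCNNNGGC in 13.6% and TAATTA in 4.9%. A comparison of the motifs over the gene sets is void, because the table holds 49 of the 72 epithelial and 76 of the 106 mesenchymal genes. A match is a run of letters and says nothing of binding.

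Transcription factors of epithelial identity were high in the same cells. Of 13 listed factors that reached 20 CPM, 10 were higher there by 10-fold or more. Barx2, a homeobox gene, had the highest level of them, at 453 against 9.28 CPM (48.8-fold, 42.4 to 56.3). Of its 206 mesenchymal UMIs, 182 were in a cluster of 59 cells led by muscle genes and without that cluster its log2 ratio was 8.64 in place of 5.61. Trp63, which keeps basal cells in a progenitor state, was at 76.3 against 0.225 CPM, and Tfap2a at 102 against 0.496 CPM. Grhl2 and Grhl3, grainyhead-like factors of epithelial barrier and junction genes, were at 26.9 and 23.7 CPM, with 2 UMIs and 0 UMIs among mesenchymal cells. Sox9, a factor of salivary bud progenitors, was at 72.8 against 7.21 CPM. Sox10, known from salivary end bud cells and from neural crest glia, was at 24.3 against 0.451 CPM. Pitx1 (145 against 192 CPM) and Pax9 (26.3 against 40.2 CPM), both of the oral region, were within 2-fold between the tissues. Esrp1, a splicing factor that sets epithelial exon choices, was at 65.7 CPM against a single mesenchymal UMI. The other splicing regulators of that level were within 2-fold, such as Rbfox2 (70.4 against 126 CPM) and Ptbp1 (176 against 157 CPM).

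On the mesenchymal side the leading gene was Pantr1, a long noncoding RNA gene beside Pou3f3 (GRCm38 chromosome 1, 42590782 to 42694842, minus strand). It was at 1555 CPM (1539 to 1572) against 2 epithelial UMIs, 8992-fold (2489 to 74254), and in 90.6% of mesenchymal against 0.134% of epithelial cells. Pou3f3 itself, a POU factor gene at 42695768 to 42703176 on the plus strand, was at 0.0865 against 113 CPM. Prrx1, the paired-type homeobox gene of limb and face mesenchyme (chromosome 1, 163245119 to 163313710, minus strand), was at 432 CPM (424 to 441) against a single epithelial UMI, a ratio of 4996 whose interval runs from 897 to 197359. Of 28 listed mesenchymal factors that reached 20 CPM, 23 were higher in mesenchymal cells by 2-fold or more and 19 by 10-fold or more, beside 10.4% and 2.95% of all genes of that level. They include factors of jaw and palate patterning. Osr2 was at 0.26 against 537 CPM, Barx1 at 0.0865 against 221 CPM, Shox2 at 0.0865 against 216 CPM, and Dlx5 at 3.11 against 145 CPM. Lhx8, a LIM homeobox gene of the first arch (chromosome 3, 154306294 to 154330659, minus strand), was at 304 CPM (297 to 312) with 0 epithelial UMIs, at least 1172-fold. Pax1 (144 CPM), Tbx15 (85.4 CPM) and Mab21l2 (262 CPM) also had 0 epithelial UMIs, and Tbx18 (242 CPM) had 3. Lhx8 and Prrx1 were found in 69.6% and 84.2% of mesenchymal cells, Pax1 in 27.6%. Of that list, 4 factors went the other way. Meis1 was 26.0-fold and Meis2 8.75-fold higher in epithelial cells, Foxp1 2.64-fold, and Foxc1 was at 20.4 against 0.0451 CPM. Foxc1 was also on the list of epithelial factors above, so it counts in both lists.

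Regulators known for the passage between epithelial and mesenchymal state were not all alike in the size of their ratios. Twist1 (0.173 against 76.2 CPM) and Twist2 (1.12 against 153 CPM) were at least 100 times lower in epithelial cells. Zeb1 was at 20.9 CPM against 3 epithelial UMIs, 80.4-fold (27.4 to 391), and Zeb2 at 12.2 CPM against 1 UMI, 141-fold (25.1 to 5598). Snai2 differed least, at 59.9 CPM in mesenchymal and 19.8 CPM in epithelial cells, 3.02-fold (2.63 to 3.49). It was found in 27.8% of mesenchymal and 13.8% of epithelial cells. Vim, vimentin, was at 78.9 against 1103 CPM.

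**Figure D2:**
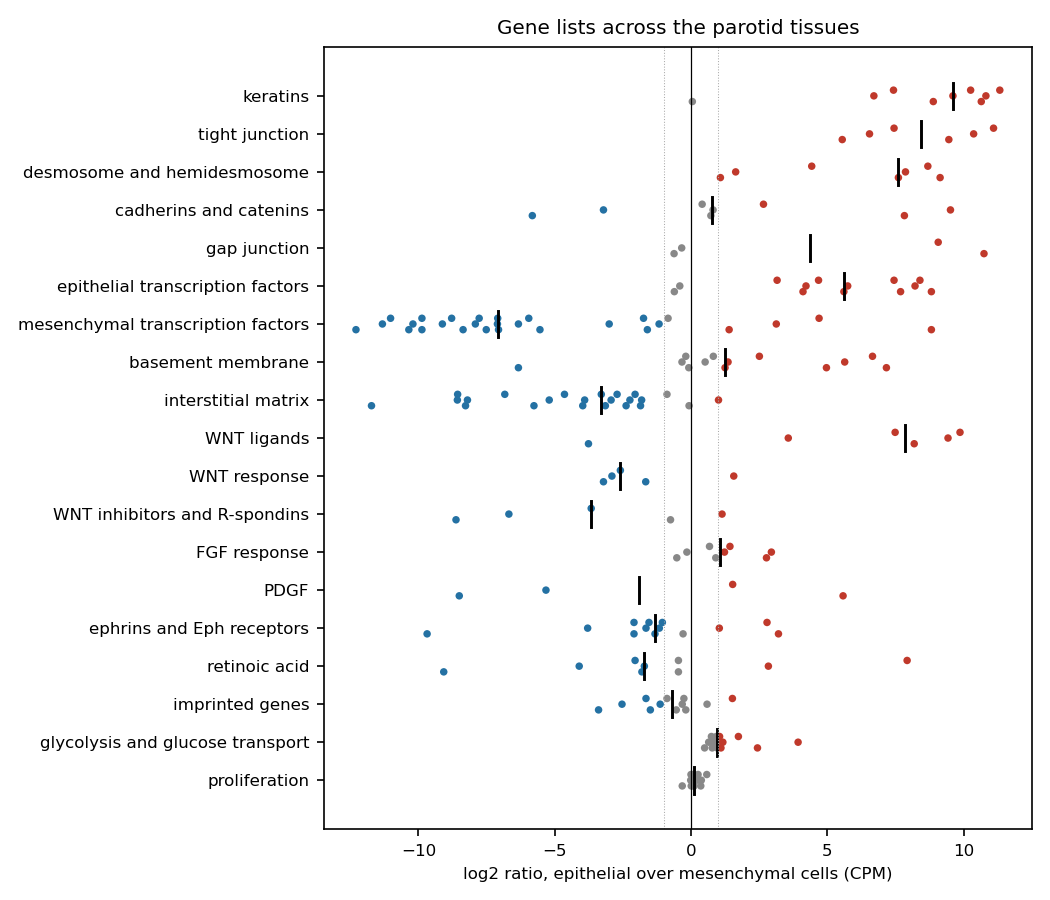
Log2 ratio of epithelial over mesenchymal CPM (horizontal) for members of 19 gene lists of at least 20 CPM on one side. Each point is a gene, red at 2-fold or more higher in epithelial cells, blue at 2-fold or more higher in mesenchymal cells, grey between, and the bar is the list's median. Keratins have a median of 9.61 and mesenchymal transcription factors of -7.10, where proliferation genes lie around 0.10.

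Matrix genes divided by the kind of matrix. Of 23 interstitial matrix genes, 20 were higher in mesenchymal cells by 2-fold or more and 11 by 10-fold or more. Lum, lumican, a collagen-binding proteoglycan, was at 1.99 against 755 CPM (380-fold, 253 to 599), Col1a1 at 1.38 against 429 CPM and Col1a2 at 4.67 against 533 CPM. Dcn, decorin, was at 35.6 against 560 CPM, and Kera, keratocan, at 175 CPM with 0 epithelial UMIs. Lox, which cross-links collagen, was at 75.1 CPM against a single epithelial UMI. Of 13 basement membrane genes, 7 were at least 2-fold higher in epithelial cells and 1 in mesenchymal cells. The epithelial ones included the laminin chain Lama5 (41.0 against 0.406 CPM), Col18a1 (94.5 against 3.02 CPM), and Frem2 (26.9 against 0.541 CPM). Lama4, a laminin chain of mesenchymal and vascular basement membranes, was at 20.8 CPM with 0 epithelial UMIs. The collagen IV chains that span all basement membranes, Col4a1 (33.9 against 35.7 CPM) and Col4a2 (23.5 against 26.9 CPM), and the laminin chain Lamb1 (53.7 against 37.4 CPM) were within 2-fold. Among integrins, the laminin receptor chain Itga6 was at 29.2 against 1.35 CPM, and Itgb1, the common partner chain, at 111 against 137 CPM.

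Ligand genes high on one side were paired with receptor genes in 47 ligand and receptor pairs taken from textbook knowledge. A gene was given to a side at 20 CPM and 2-fold. In 6 pairs the ligand was epithelial and the receptor mesenchymal, and in no pair was the ligand mesenchymal and the receptor epithelial at those sizes. The 6 were Pdgfa and Pdgfc to Pdgfra, Fgf9 to Fgfr1, Sema3c to Nrp2, Sema3d to Nrp1, and Efnb2 to Ephb4, with Pdgfra a gate gene whose own difference is set by the gate. Some lay near the limits, with log2 ratios of 1.04 for Efnb2, -1.05 for Ephb4 and -1.14 for Nrp2, and Fgf9 at 21.0 CPM. Pairs with a ligand below 20 CPM ran both ways. Fgf10 (-7.36) and Fgf7 (-4.97) were mesenchymal with Fgfr2 epithelial (4.08), and Edn1 (4.98) was epithelial with Ednra mesenchymal (-6.72). Ligand and receptor were both mesenchymal in 4 pairs, both were epithelial for Wnt4 and Fzd6 and 9 pairs were below 20 CPM for both genes.

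**Figure D3:**
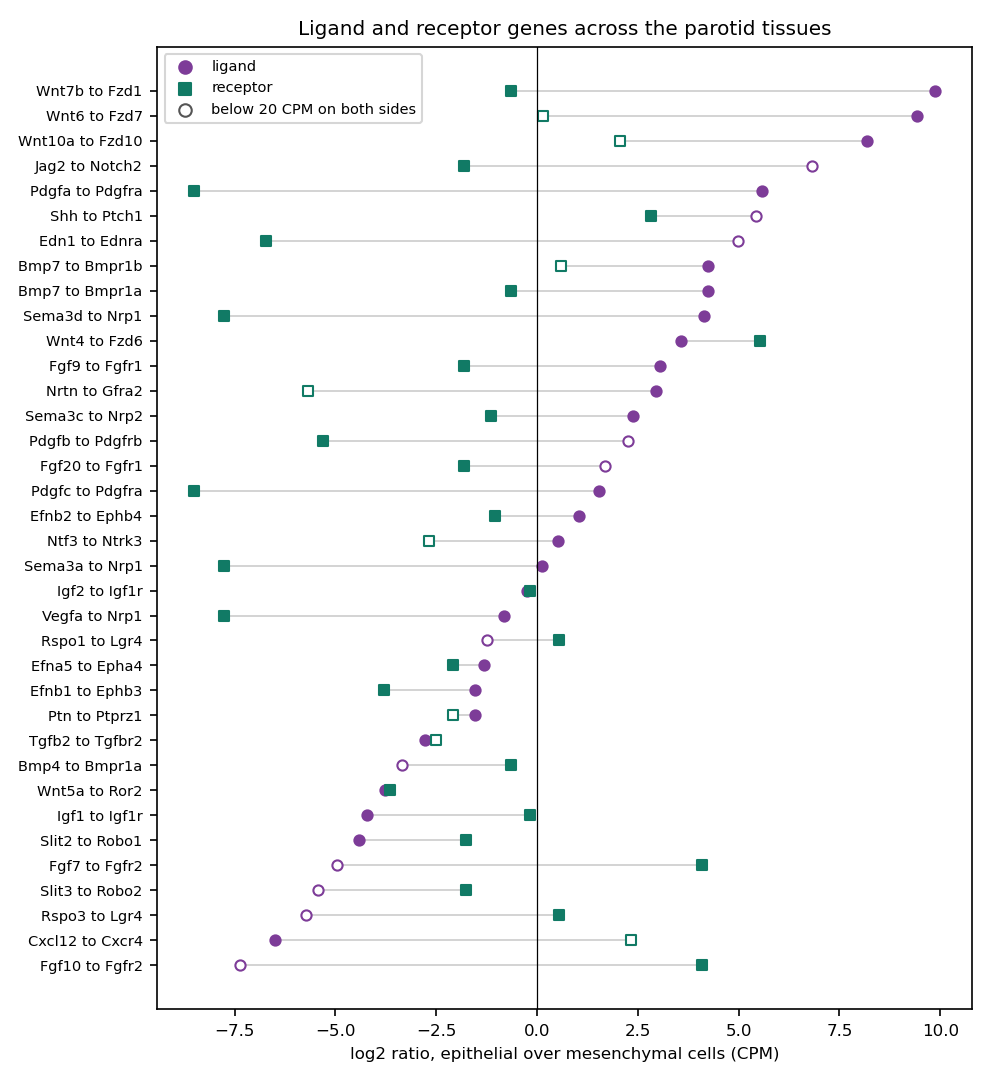
Log2 ratio of epithelial over mesenchymal CPM for the ligand (purple circle) and the receptor (green square) of pairs in which at least 1 gene reached 20 CPM, in order of the ligand's ratio. Open symbols are genes below 20 CPM on both sides, and ratios against 0 UMIs are drawn as computed against 3 UMIs. Pdgfra is a gate gene, so its place was set by the gate. Sema3d lies at 4.14 with its receptor Nrp1 at -7.77, and Fgf10 at -7.36 with its receptor Fgfr2 at 4.08.

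Platelet-derived growth factor ligand genes were higher in epithelial cells. Pdgfa was at 430 CPM (419 to 443) in epithelial cells, was seen in 87.1% of them, and was at 9.01 CPM in mesenchymal cells (47.8-fold, 41.5 to 55.3). Of its 200 mesenchymal UMIs, 118 were in a cluster of 59 cells led by muscle genes, and without that cluster its log2 ratio was 6.79 in place of 5.58. Pdgfc was at 137 against 47.2 CPM. Pdgfrb, a receptor gene that the gates did not use, was at 0.951 against 38.1 CPM, 40.0-fold higher in mesenchymal cells (22.3 to 80.5). Fibroblast growth factor ran both ways. Fgfr2, whose epithelial form receives mesenchymal FGF, was at 53.4 against 3.16 CPM. Its ligand Fgf10 was at 14.2 CPM in mesenchymal cells against a single epithelial UMI, below the 20 CPM used for the pairs. Fgf9 was at 21.0 CPM in epithelial cells against 2.52 CPM, and its receptor Fgfr1 at 31.1 against 108 CPM. Fgf8, a ligand gene outside the pairs, had a higher epithelial level than Fgf9, at 37.2 against 0.135 CPM. The FGF feedback and target genes Etv4 (48.4 against 7.12 CPM), Etv5 (67.2 against 8.70 CPM) and Spry2 (173 against 73.3 CPM) were at least 2-fold higher in epithelial cells, with 4 of the 8 listed genes of at least 20 CPM so and 0 higher in mesenchymal cells.

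Most WNT ligand genes were high in epithelial cells and most WNT response genes in mesenchymal cells. Of 6 ligand genes that reached 20 CPM, 5 were higher in epithelial cells by 10-fold or more. Wnt6 (GRCm38 chromosome 1, 74771892 to 74785322, plus strand) was at 404 CPM against 0.586 CPM, 689-fold (403 to 1295), and was found in 76.9% of epithelial cells. Wnt7b was at 127 CPM with 0 mesenchymal UMIs, at least 937-fold, Wnt4 at 65.7 against 5.54 CPM and Wnt10a at 39.5 against 0.135 CPM. Wnt5a, a ligand of the noncanonical branch, was the 1 listed ligand of at least 20 CPM that was higher in mesenchymal cells, at 4.58 against 62.1 CPM. Its receptor Ror2 was at 1.73 against 21.8 CPM. Of 5 WNT response genes, 4 were at least 2-fold higher in mesenchymal cells: Axin2 (5.80 against 34.8 CPM), Lef1 (21.7 against 68.4 CPM), Nkd1 (5.80 against 43.4 CPM) and Nkd2 (2.51 against 23.2 CPM). The fifth, Znrf3, a WNT receptor antagonist, was higher in epithelial cells, at 38.2 against 12.9 CPM. Secreted modulators were mostly mesenchymal, with Dkk2 at 0.346 against 136 CPM, Sfrp2 at 31.6 against 398 CPM and Rspo2 at 26.6 CPM with 0 epithelial UMIs. Sostdc1 was at 276 CPM in epithelial and 125 CPM in mesenchymal cells, a log2 ratio of 1.14 that was -0.33 with the epithelial cells of at least 3 Epcam UMIs in the mesenchyme library in place of those of the epithelium library.

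Of 13 listed hedgehog genes, 5 reached 20 CPM, with 1 at least 2-fold higher on each side. Gas1, a coreceptor gene, was at 152 against 381 CPM, and Smo, the signal transducer, at 48.9 against 66.7 CPM. The ligand Shh was at 5.88 CPM in epithelial cells with 0 mesenchymal UMIs. Its receptor and target gene Ptch1 was at 26.7 against 3.79 CPM, a log2 ratio of 2.82, but of -0.55 with the epithelial cells of the mesenchyme library, where it had 2 UMIs.

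Other pathways were also divided by member. In the BMP and TGF-beta family, Bmp7 was at 55.7 against 2.93 CPM, and Tgfb2 (12.4 against 85.3 CPM), Bmp2 (7.01 against 41.4 CPM) and Bmp1 (14.5 against 40.3 CPM) were higher in mesenchymal cells. The Notch target Hes1 was at 403 against 34.4 CPM and Nrarp, a Notch feedback gene, at 51.8 against 1.13 CPM, both higher in epithelial cells. Hes1 was found in 71.5% of epithelial cells and Nrarp in 18.2%, and Nrarp ran from 6.24 to 627 CPM over clusters of these cells. The receptor Notch2 was 3.54-fold higher in mesenchymal cells (3.07 to 4.10). In the retinoic acid pathway, Aldh1a2, which makes retinoic acid, was at 46.6 CPM in mesenchymal cells against a single epithelial UMI. Cyp26a1, which breaks it down, was at 43.9 CPM in epithelial cells against 0.18 CPM. Crabp1, a binding protein for it, was at 11.4 against 195 CPM. The chemokine Cxcl12 was at 419 CPM in mesenchymal and 4.67 CPM in epithelial cells, and its receptor Cxcr4 was below 20 CPM in both (2.25 CPM in epithelial and 0.451 CPM in mesenchymal cells). Nrtn, neurturin, a factor for the parasympathetic neurons of the gland, was at 120 CPM in epithelial and 15.5 CPM in mesenchymal cells, 7.73-fold (6.87 to 8.73). The endothelin receptor gene Ednra was at 0.432 against 45.6 CPM, with its ligand Edn1 at 2.85 CPM in epithelial cells.

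Guidance genes leaned to the mesenchyme. Of 13 ephrin and Eph genes, 9 were higher in mesenchymal and 3 in epithelial cells by 2-fold or more. Epha3 was at 213 CPM with 0 epithelial UMIs, at least 821-fold. Epha4 was at 114 against 488 CPM and Ephb3 at 10.1 against 140 CPM, where Epha1 (24.2 against 2.61 CPM) and Efna1 (35.9 against 5.18 CPM) were higher in epithelial cells. Of 13 semaphorin, slit, netrin and receptor genes, 6 were higher in mesenchymal and 3 in epithelial cells by 2-fold or more, and 4 were within 2-fold. The epithelial ones were Sema3d (29.3 against 1.67 CPM), Sema3c (24.8 against 4.73 CPM) and Ntn1 (20.15 against 3.065 CPM). Slit2, a secreted guidance cue, was at 4.41 against 93.9 CPM, and the neuropilin Nrp1 at 56.6 CPM against 3 epithelial UMIs. Nefl, a neurofilament chain gene, was at 268 CPM against 3 epithelial UMIs, with 1933 CPM in 1 mesenchymal cluster and 8.14 to 229 CPM in the others. Tubb3, a neuronal tubulin gene, was at 5.62 against 119 CPM. Nefl was found in 34.5% of mesenchymal cells.

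All 15 proliferation genes were within 2-fold (median log2 ratio 0.10). Of 14 glycolysis and glucose transport genes, 6 were higher in epithelial and 0 in mesenchymal cells by 2-fold or more, with a median log2 ratio of 0.97. The glucose transporter Slc2a1 was at 105 against 19.3 CPM, its relative Slc2a3 at 95.7 against 6.26 CPM (15.3-fold), Eno1 at 838 against 250 CPM and Ldha at 1080 against 504 CPM. Over clusters of epithelial cells Slc2a3 ran from 7.80 to 1643 CPM. The metallothioneins Mt1 (583 against 4.10 CPM) and Mt2 (344 against 1.53 CPM), metal-binding proteins, were among the highest epithelial 10-fold genes. Imprinted genes lay lower in epithelial cells in 5 of 12 cases and higher in 1. Meg3, a maternally expressed noncoding RNA, was at 131 against 1367 CPM, Cdkn1c, a growth inhibitor, at 542 against 1708 CPM, and Snrpn at 91.7 against 31.9 CPM. Igf2 (55.6 against 66.5 CPM) and H19 (375 against 469 CPM) were within 2-fold. Immediate early genes, which respond to dissociation, were 2-fold or more higher in mesenchymal cells for 4 of 12 and in epithelial cells for 1, with Fos at 403 against 880 CPM. Their part in the other differences was not tested.

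A set of epithelial cells inside the mesenchyme library gave the contrast within 1 library. There 86 barcodes met the epithelial gate, with a median of 8350 UMIs. This contrast uses the same mesenchymal cells, so its ratios are not independent of the main ones. Krt15 was at 1257 CPM in these cells (1072-fold above mesenchymal cells, 727 to 1650), Gjb2 at 120 CPM, Wnt6 at 190 CPM and Pdgfa at 338 CPM. Over the 72 epithelial 10-fold genes the median level was 74.7% of that in the epithelium library, with quartiles of 55.1% and 103%. These genes were chosen for a high ratio in the epithelium library, so a lower level here is partly set by that choice. Mesenchymal genes were low in these cells but not as low as in the epithelium library. Pantr1 was at 64.5 CPM, Prrx1 at 14.2 CPM and Lhx8 at 11.6 CPM, and the median over the 106 mesenchymal 10-fold genes was 4.23% of the mesenchymal level, against 1.27% in the epithelium library. The 106 were chosen for a low level in the epithelium library's cells, so the gap between these shares is partly set by that choice. Pdgfra and Col3a1 among them are absent from both sets of epithelial cells by the gate. Haemoglobin followed the library: it was 0.0888% of UMIs in mesenchymal cells, 0.0692% in these 86 cells and 0.00227% in the epithelium library's cells. The part of free RNA or mixed droplets in these low levels was not tested. Cxcl14, a chemokine gene singled out after its values were seen, was at 894 CPM in epithelial cells of the epithelium library, 567 CPM in mesenchymal cells and 95.5 CPM in the 86 cells. Krt7 and Slc2a3 were at 7.74 and 21.9 CPM in the 86 cells, and at 64.2 and 95.7 CPM in the epithelium library's cells. Col9a1 and Foxc1 were higher in the 86 cells, at 49.0 and 28.4 CPM beside 20.6 and 20.4 CPM. The part of a different mix of epithelial cells was not tested. Ratios of the leading mesenchymal genes were smaller within the library, 24.1-fold for Pantr1 (18.3 to 32.5) and 30.5-fold for Prrx1 (17.0 to 61.0).

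Sex-linked genes moved with the library. Xist, the noncoding RNA of the inactive X chromosome, was at 511 CPM in epithelial and 19.5 CPM in mesenchymal cells, and at 2.58 CPM in the 86 epithelial cells of the mesenchyme library. Its log2 ratio was thus 4.71 between the libraries and -2.92 within the mesenchyme library. The labels do not give the sex of the embryos. The Y-linked gene Ddx3y was at 18.6 CPM in epithelial and 68.5 CPM in mesenchymal cells. Xist was in 54.1% of epithelial and 1.51% of mesenchymal cells. Markers of other cell types differed in level. Summed endothelial markers were at 18.9 CPM in epithelial and 26.8 CPM in mesenchymal cells and macrophage markers at 2.34 and 1.76 CPM, with 0 of the 9 and 0 of the 7 listed genes at 20 CPM. Muscle markers were at 15.6 and 124 CPM, with 1 of 10 at 20 CPM. Neural crest, glia and neuron markers were at 47.7 and 137 CPM, with 2 of 9 at 20 CPM, 1 higher on each side. Sox10, at 24.3 against 0.451 CPM, was the epithelial one. Tubb3, the mesenchymal one, was at 46.2 to 236 CPM over all mesenchymal clusters and at 0 to 60.4 CPM over the epithelial clusters, so the ranges overlapped. Erythroid markers were at 22.7 and 890 CPM, with 5 of 9 at 20 CPM, all 5 of them 10-fold or more higher in mesenchymal cells. Cartilage markers, 132 and 26.2 CPM, were higher in epithelial cells through Sox9, Col2a1 (38.1 against 15.7 CPM) and Col9a1 (20.6 against 1.17 CPM), with Acan at 0 on both sides. The part of cells of these types in the differences was not tested.

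Each tissue was a mixture, so the cells of each side were clustered, which gave 10 epithelial and 14 mesenchymal clusters. Levels by cluster describe how evenly a gene of the contrast was spread, and the clusters rest on the same genes. Of the 72 epithelial 10-fold genes, 60 (83.3%) were higher in every epithelial cluster than in any mesenchymal one, and 86 of the 106 mesenchymal genes (81.1%) the other way round. At 2-fold these counts were 113 of 204 and 130 of 300. The gate genes Epcam, Pdgfra and Col3a1 are in these counts, and their difference is set by the gates. Krt15 ran from 182 to 4509 CPM over the epithelial clusters, with at most 3.83 CPM in a mesenchymal cluster. Esrp1 was more even, from 46.0 to 187 CPM. Only clusters 1 and 6, with 17.0% and 7.98% of epithelial cells, had Sox10 among the leading genes. There Krt15 was at 328 and 182 CPM, Gjb2 at 51.1 and 25.8 CPM and Wnt7b at 16.5 and 3.90 CPM. These lie low in the ranges over the epithelial clusters. Cldn6 did not, at 112 and 99.9 CPM within a range of 48.0 to 485 CPM. Among mesenchymal genes Prrx1 ran from 69.1 to 698 CPM and Pax1 from 2.69 to 740 CPM, both with under 1 CPM in every epithelial cluster. The 10-fold genes that overlapped between clusters of the tissues included Sox9, Wnt4, Nrarp, Slc2a3, Meg3, Slit2, Crabp1 and Tubb3. Sox9 was at 16.4 CPM in the lowest epithelial and 30.7 CPM in the highest mesenchymal cluster. Slit2 reached 29.6 CPM in an epithelial cluster and fell to 10.2 CPM in a mesenchymal one. Barx2 and Pdgfa overlapped as well. A small mesenchymal cluster of 59 cells, led by genes that include the muscle genes Myod1 and Des and with a median of 17860 UMIs, had passed the mesenchymal gate. In it Barx2, also one of its leading genes, was at 168 CPM and Pdgfa at 109 CPM, above the lowest epithelial clusters at 48.0 and 84.8 CPM. It also held 49 of the 56 mesenchymal Fgf9 UMIs and 8 of the 13 of Wnt6, whose log2 ratios were 5.99 and 10.73 without it, in place of 3.06 and 9.43. Without it the 10-fold counts were 71 and 107.

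**Figure D4:**
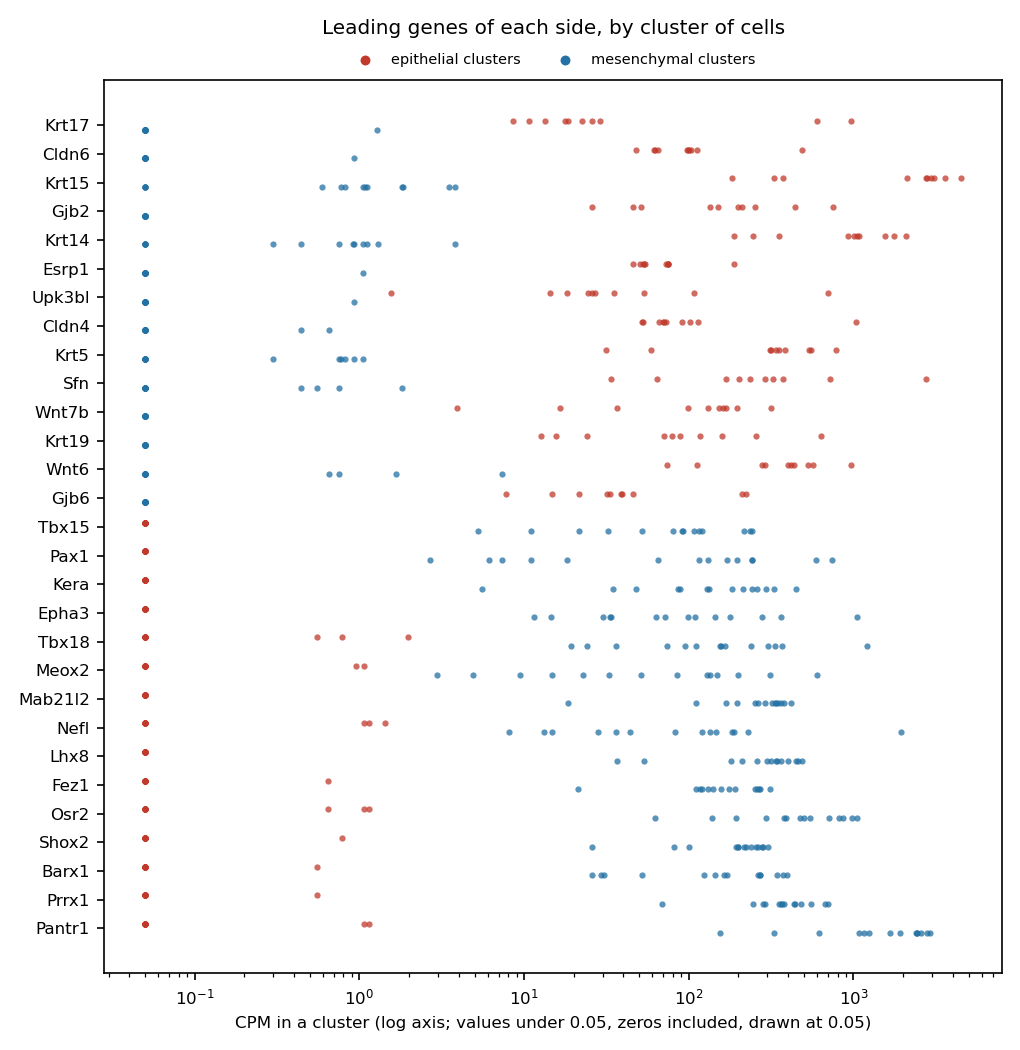
CPM of leading genes of each side in each of the 10 epithelial (red) and 14 mesenchymal (blue) clusters, on a log axis, with values under 0.05 drawn at 0.05. Each point is a cluster. For the genes drawn the red and blue points do not overlap, and the range within a tissue is wide for genes such as Krt15 (182 to 4509 CPM) and narrower for Esrp1 (46.0 to 187 CPM).

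The same gates in the submandibular libraries gave 3549 epithelial and 3406 mesenchymal cells and values for the same contrast in another gland. Of the 72 parotid epithelial genes, 56 (77.8%) were at least 10-fold and 68 at least 2-fold higher in submandibular epithelial cells. Of the 106 mesenchymal genes, 86 (81.1%) were at least 10-fold and 103 at least 2-fold higher in submandibular mesenchymal cells. The same gates chose these cells, so Epcam, Pdgfra and Col3a1 agree by the gates in these counts and in the shared lists. In the submandibular gland, among genes of 50 CPM or more, the 10-fold shares were 1.68% (epithelial) and 3.45% (mesenchymal) and the 2-fold shares 9% and 13.1%. With 50 CPM asked of each gland, the epithelial lists of 72 and 58 genes shared 37, which is 51.4% of the parotid and 63.8% of the submandibular list. The mesenchymal lists of 106 and 119 genes shared 53 (50% and 44.5%). Across the 3268 genes, which are not independent replicates, Pearson's r of the log2 ratios was 0.880 and Spearman's rho 0.767. The 10-fold genes that were not at least 2-fold in the same direction in the submandibular gland included Pou3f3, Pax1, Klk8, Slc2a3, Bmp7 and Xist. Pou3f3 and Pax1 were nearly silent there on both sides, with 1 UMI and 0 UMIs in submandibular mesenchymal cells. Bmp7 was at 42.1 CPM in submandibular epithelial and 24.1 CPM in mesenchymal cells, and Klk8, a serine protease gene, at 48.5 and 25.1 CPM. Slc2a3, a glucose transporter gene, was at 4.34 and 10.8 CPM there, against 95.7 and 6.26 CPM in the parotid. Its parotid epithelial level was uneven, from 7.80 to 1643 CPM over the epithelial clusters, with at most 11.45 CPM in a mesenchymal cluster. Pantr1 kept its direction at a low level, with 0.389 CPM in submandibular mesenchymal and 0 UMIs in epithelial cells. Nrp2 had a wider ratio in the submandibular gland (0.106 against 302 CPM) than in the parotid (28.0 against 61.9 CPM). With 1 library per group none of these differences between the glands was tested.

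**Figure D5:**
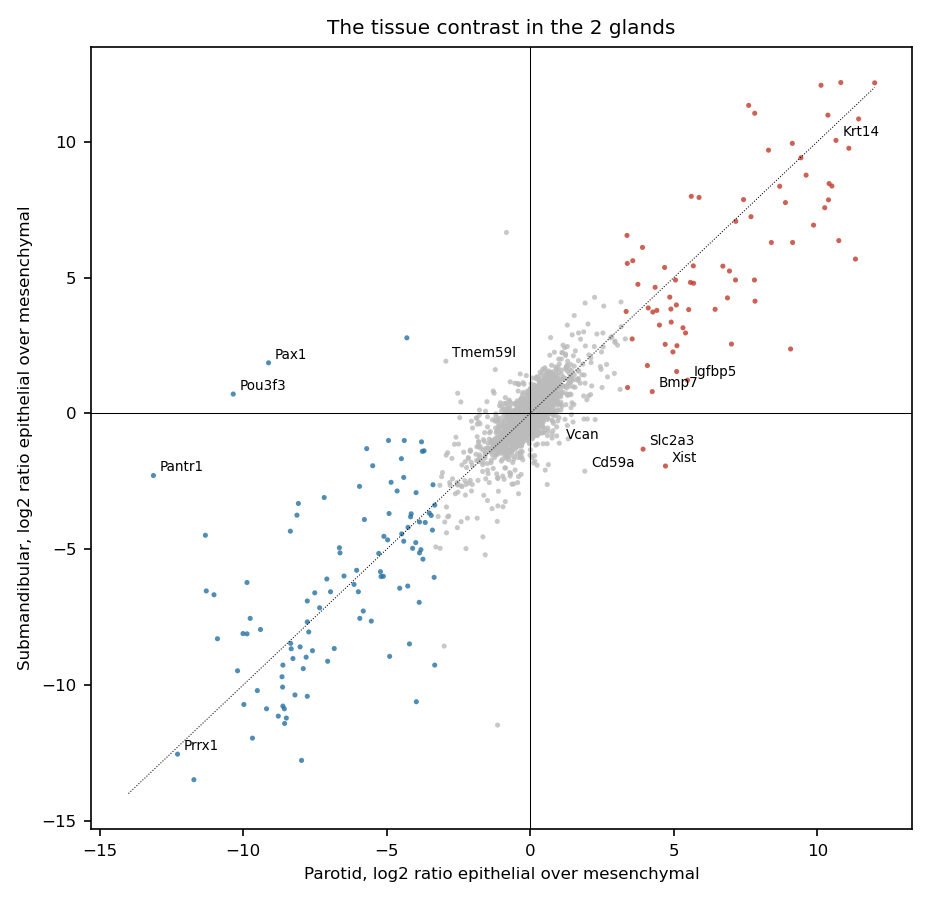
Log2 ratio of epithelial over mesenchymal CPM in the parotid (horizontal) and submandibular gland (vertical) for the 3268 genes of at least 50 CPM in the parotid. Red and blue points are the 72 and 106 parotid 10-fold genes, the dotted line marks equal ratios, and ratios against 0 UMIs are drawn as computed against 3 UMIs. Most coloured points lie at the lower left and upper right. Genes with ratios of opposite sign in the glands at 2-fold or more include Tmem59l, Cd59a, Vcan, Xist and Slc2a3. Slc2a3, at 3.93 and -1.32, was below 50 CPM on both sides of the submandibular gland.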

How the data were processed

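Single-cell RNA of parotid and submandibular epithelium and mesenchyme was measured in 4 libraries. The deposited values are raw UMI counts per gene and barcode for 27998 genes, not normalized, made with Cell Ranger 2.1.1 on mm10, per the submitters' processing notes. Cell filters and gates are given above, and no other doublet removal was made. UMIs were summed per side and scaled to CPM (Python 3.11.15, numpy 2.4.6, scipy 1.17.1, pandas 2.3.3). Intervals were exact at 95% (Poisson for levels, conditional binomial for ratios, Clopper-Pearson for shares of barcodes), and they cover counting error only, not differences between embryos or dissections. For shares of cells, thinning to 2000 UMIs left out 11 epithelial and 0 mesenchymal cells: Krt15 was then seen in 72.0% against 0.171% and Prrx1 in 0.0676% against 54.4%. Clusters were made per side with the Leiden method (scanpy 1.11.5, resolution 0.8, 2000 variable genes, 30 components, 15 neighbours). edgeR 4.0.16 (R 4.3.3) gave TMM scaling factors as an alternative. The ratio script was tested on simulated data.

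The members and gene lists were chosen with earlier results of these data known. Named genes were the 15 per side with the highest lower limit of the ratio, the 5 per side of highest level among the 10-fold genes, up to 6 members per list, and all members of the 47 pairs. Top genes left out gate, haemoglobin, mitochondrial, ribosomal, unnamed, sex-linked, immediate early and heat shock genes. Also left out were genes more than 10 times higher in a group of at least 20 barcodes that the gate of the same library did not keep. Genes and ranges named outside the rule, among them Zeb2, Krt10, Col4a1 and Klk8, were chosen after their values were seen. Some genes that the rule names are not reported here. Of the listed symbols, 2 were matched by identifier and 1 was not found. Coordinates are those of GENCODE vM21. Alternatives were other scaling, level minimum, filters, gates, cell weighting, removal of the deepest cells and another source of epithelial cells.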

Additional observations from a re-analysis of the deposited data

Results flagged for a closer look

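In some genes that reached 50 CPM in both glands the contrast ran in opposite directions in the glands, at 2-fold or more each way. Among genes below that level in the submandibular gland, Slc2a3 did so too, with log2 ratios of 3.93 in the parotid and -1.32 in the submandibular gland. In the parotid it ran from 7.80 to 1643 CPM over the epithelial clusters. Tmem59l, a Golgi membrane protein gene, had log2 ratios of epithelial over mesenchymal CPM of -2.94 in the parotid against 1.92 in the submandibular gland (a difference of -4.86). Vcan, versican, a matrix proteoglycan, had 1.01 against -1.10 (difference 2.11), and Cd59a, a complement inhibitor, had 1.90 against -2.13 (difference 4.03). Xist had 4.71 against -1.94 (difference 6.65), and -2.92 within the parotid mesenchyme library. The differences between the glands were not tested, since each group had 1 library. Within the parotid mesenchyme library Tmem59l kept a ratio below 0 (-1.85), and Vcan (0.79) and Cd59a (1.30) stayed above 0.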

How the results depend on the processing

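No paired analysis was possible because each tissue had 1 library and no replicate. The level minimum alone moved the counts by over 1.5 times: at 10 CPM, 696 and 959 genes were at least 2-fold higher in epithelial and mesenchymal cells and 210 and 261 at least 10-fold, against 204, 300, 72 and 106, because more genes were compared. Under the 8 other alternatives fixed earlier the 2-fold counts ran from 186 to 217 and from 267 to 325, and the 10-fold counts from 57 to 73 and from 88 to 107. Leaving out the muscle-led cluster, an alternative chosen after seeing the data, gave 210, 310, 71 and 107. Of 255 named genes, 183 had a log2 ratio outside the counting interval of the main value with epithelial cells of the mesenchyme library and 192 with those of 3 or more Epcam UMIs, beside those that changed sign, and of 256 genes 124 without a marker gate. The log2 ratio changed sign with epithelial cells of the mesenchyme library for Xist (-2.92, and -2.46 at 3 or more Epcam UMIs), Ptch1 (-0.55 and -0.10), and Fgf7 (0.52 and 0.97), and at 3 or more Epcam UMIs also for Sostdc1 (-0.33) and Ntrk3 (0.09). Without a marker gate it did so for Gdnf (-0.22) and Pdgfb (-0.48), and with the stricter gate for Gdnf (-0.56). The cause was not tested. Depth limits the genes at 0 UMIs on a side, and the 86 epithelial cells of the mesenchyme library limit what lies under a few CPM there.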
